A study of Mus musculus with 24 samples.

Results

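Cytochrome c oxidase is complex IV, the terminal enzyme of the mitochondrial respiratory chain. The 10 genes described here are 9 nuclear genes for its structural subunits (Cox4i1, Cox5a, Cox5b, Cox6a1, Cox6b1, Cox6c, Cox7a2, Cox7b and Cox7c) and Cox17, the gene of a copper chaperone. They were taken by gene symbol from the deposited table of 23235 genes in 24 RNA-seq libraries. Earlier results of these data were known when the set was chosen. The values are labelled FPKM, by definition sequenced fragments scaled to transcript length and library size. Their sums differed widely between libraries, as given below, so scaling to library size alone cannot be assumed. A gene was tested if the mean of any group reached 1 FPKM; 10884 genes did so, all 10 members among them.

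The libraries were of C57BL/6 oocytes and zygotes of 3 genotypes, labelled wild type (WT), Cnot6l-/- and Btg4-/-, at 4 stages, with 2 libraries in each of the 12 groups. Every group is labelled postnatal day 21. Fully grown oocytes with an intact germinal vesicle (GV) were taken 48 h after PMSG, a gonadotropin that drives follicle growth. Oocytes labelled MI (first meiotic metaphase) had 8 h in culture, those labelled MII (second metaphase, the mature egg) had 16 h, and zygotes were collected 24 h after hCG, the ovulating hormone. The labels name the knockouts by genotype alone, and the deleted exons, the number of females and the genotype of the males are not given in them. The protocol states 100 oocytes per RNA sample and the design text 2, so how many cells each library holds is uncertain. Nothing says that the 2 libraries of a group came from separate animals, so p-values measure the spread between these libraries, which may be technical.

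In complex IV, electrons from cytochrome c pass through copper and haem centres to oxygen, and protons are pumped across the inner mitochondrial membrane. The catalytic subunits are encoded by mitochondrial DNA and were not analysed here, while the small subunits that surround them are nuclear. The oocyte stores large amounts of mRNA for such proteins during growth and removes much of it during meiotic maturation. CNOT6L is a deadenylase, an enzyme that shortens poly(A) tails as part of CCR4-NOT, and BTG4 is an adaptor that brings this complex to mRNAs in maturing oocytes.

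Because poly(A) tail control acts through the 3′ untranslated region (3′ UTR), the ends of these transcripts were read from the mm9 genome with GENCODE models, for the transcript whose ends lie nearest to the deposited gene model. That choice was made after the values were seen, since the longest model of Cox17 retains an intron. The windows below are 30 bases of the RNA strand, 5′ to 3′. The first 4 hold ATTTA, the core of AU-rich elements, in capitals, and are shown because the 3 members with the largest differences from WT in zygotes labelled Btg4-/- (Cox7b, Cox7c and Cox17) are among these 4 genes.
Cox7a2 (chr9:79603244-79603273, minus strand): tttggggatcaatATTTAttgatgtgtatt
Cox7b (chrX:103217339-103217368, plus strand): atggtgacttctcATTTATTTAagctgtat
Cox7c (chr13:86185337-86185366, minus strand): aaaaaataaggatATTTAattcatcccttt
Cox17 (chr16:38352791-38352820, plus strand): aaatggataaagtATTTAtaATTTAttaaa
The next 4 have no ATTTA anywhere in the 3′ UTR. They are shown around the polyadenylation signal AATAAA, in capitals. Of these, 3 belong to the group that fell steeply by MI in WT oocytes, while Cox6a1 had the smallest fall on the deposited scale. Cox6b1 and Cox6c, which fell less steeply, hold no ATTTA either and are not shown. Genes with ATTTA were found on both sides, Cox7b and Cox17 in the steep group and Cox7a2 and Cox7c outside it. The windows therefore do not set the steep group apart.
Cox4i1 (chr8:123198070-123198099, plus strand): tccaatggtccatgctAATAAAagaccagt
Cox5a (chr9:57380191-57380220, plus strand): tagtaacttggactttAATAAAgggaaatg
Cox5b (chr1:36750183-36750212, plus strand): agaaaaacttctctctAATAAAgattagcc
Cox6a1 (chr5:115795668-115795697, minus strand): aagaggagatgccttaAATAAAtaacttaa

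The 3′ UTRs of the set were short. Their median length was 139.5 bases against 821 over 9972 genes with a 3′ UTR of at least 50 bases, and 7 of the 10 were under 200 bases against 13.6% of those genes. With the longest 3′ UTR of each gene, 5 of the 10 were under 200 bases. ATTTA occurred in Cox7a2 (2 copies), Cox7b (3), Cox7c (1) and Cox17 (2), while 63.8% of all 3′ UTRs and 20% of those under 200 bases held it. TTTTA, the start of the cytoplasmic polyadenylation element, was found in Cox5a, Cox7a2 and Cox7b, against 74.6% of all 3′ UTRs and 31.3% of those under 200 bases. AATAAA was present in 8 of the 10, against 78.9% of all 3′ UTRs and 64.6% of those under 200 bases. With the longest 3′ UTR of each gene every member held AATAAA, against 79.2% of all genes, and Cox17 also held TTTTA. In the nearest models Cox17 had ATTAAA in place of AATAAA, starting on the last base of the second ATTTA shown above, and Cox7c held neither. Promoters of 7 members were matched in RefSeq (GRCm38.p6, 250 bases before to 50 after the start), and both strands were searched. The palindromic NRF1 motif occurred in Cox6a1 (0.971% of 32851 promoters). CCGGAAG, an ETS-family motif, occurred in Cox6a1 and Cox6b1 (8.86%), and AAGATGGC, the YY1 motif, in no member (2.75%). These matches are a description of sequence.

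Summed FPKM over all genes was 451732 and 543648 in the WT GV libraries and 76038 and 49930.4 in the WT zygote libraries, and it also fell in both knockouts. The sources used here do not say how the authors scaled the values. Comparisons are therefore given on the deposited scale and, where it matters, after 2 rescalings that remove library-wide differences: a median-ratio factor per library, and division to a common sum of 1000000. Fewer oocytes and less RNA per oocyte cannot be told apart. The filter at 1 FPKM was applied again after each rescaling. Shares and medians of all genes are thus over 9823 genes after median-ratio scaling and 13092 at a common sum, against 10884 as deposited. Where no share of all genes after rescaling stands beside a count of members, that count describes the members only. Between WT GV and MI the median of all genes fell by 0.95 (log2) as deposited, fell by 0.16 after median-ratio scaling, and was 0.03 higher at a common sum. Cnot6l transcript was lower in Cnot6l-/- than in WT libraries at GV, MI and MII (by limma, log2 differences of -2.84, -1.81 and -1.94, highest adjusted p = 0.022), and in zygotes the difference was -1.32 (adjusted p = 0.27). Btg4 transcript did not pass the test in the libraries labelled Btg4-/- at any stage (log2 differences of -0.18 to 0.57, lowest adjusted p = 0.12), so these values do not check that label. The 10 oocyte markers were all at 1 FPKM or more in every GV group. The 10 cumulus and granulosa cell markers summed to between 15.8 and 28.3 FPKM in GV libraries and between 1.56 and 6.05 in zygotes. Ptx3 was at 0 in 11 of the 12 groups. Cyp19a1 had the highest GV means of the list, at 10.6 FPKM in WT, 18.1 in Cnot6l-/- and 6.3 in libraries labelled Btg4-/-. At MI they summed to 6.99 and 8.93 FPKM in WT, 15.4 and 16 in Cnot6l-/- and 11.1 and 14.5 in libraries labelled Btg4-/-. Of the 6 sperm markers, Tnp1 was at 0 in every group and Prm1 at 0.5 or less, while Ldhc and Prm2 had the highest means. The sums of the 6 at GV were 33.06 and 33.48 FPKM in WT, 65.02 and 84.26 in Cnot6l-/- and 36.83 and 58.95 in libraries labelled Btg4-/-. At MI they were 4.28 and 4.85, 33.2 and 36.4, and 27.4 and 30.8, and at MII 0.84 and 1.54, 17.6 and 18.02, and 2.93 and 6.48. Both sums were thus higher at MI where the complex IV transcripts were higher. The part of these markers in the results was not tested.

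The complex IV transcripts were among the most abundant of the GV oocyte. In WT GV oocytes their mean levels ran from 161 FPKM for Cox7b to 780.2 FPKM for Cox6c, and each lay above at least 94.39% of the genes tested. Cox6c, a small membrane-spanning subunit (chr15:35861731-35868001, mm9), was at 793 and 768 FPKM. Below it came Cox4i1 at 691 and 749, Cox17 at 699.8 and 708, and Cox5a at 683 and 704, whose libraries overlapped one another. Cox7b (chrX:103211039-103217789) was lowest, at 199.7 and 122 FPKM. Together the 10 genes made up 1.05% ± 0.15 (SD, n = 2) of summed FPKM in WT GV libraries.

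At GV the knockouts were near WT. No member passed limma's test in Cnot6l-/- against WT (0 of 10, 0 at an unadjusted p under 0.05; 9.09% of all genes passed) or in Btg4-/- against WT (0 of 10, 1 at an unadjusted p under 0.05; 7.43% of all genes). The member with that unadjusted p was Cox7b, with a log2 difference of -1.15 (SE 0.48, adjusted p = 0.16) in libraries labelled Btg4-/-, at 48.5 and 100.04 FPKM. The interval of that difference reached from -2.17 to -0.13, so the GV level of Cox7b may already be lower there.

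Between GV and MI in WT oocytes, 9 of the 10 genes fell and the 10 separated into a steep and a shallow group. Cox4i1, Cox5a, Cox5b, Cox7b and Cox17 were left at 4.37% to 10.1% of their GV mean, whereas Cox6a1, Cox6b1, Cox6c, Cox7a2 and Cox7c were left at 28% to 56.2%. The background is high, since 65.1% of all genes tested were called lower in this comparison (limma on log2(FPKM + 1), Benjamini-Hochberg adjusted p under 0.05 over all genes tested). The median log2 difference of the 10 was -2.60 against -0.95 for all genes. On this scale of log2(FPKM + 1), differences of genes near 1 FPKM are understated.

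In the steep group, Cox4i1 (chr8:123192190-123198109) encodes the largest nuclear subunit, which contacts the catalytic core and is needed early in assembly. It went from 691 and 749 FPKM at GV to 58.7 and 44.5 at MI, a log2 difference of -3.79 (SE 0.31, adjusted p = 2.2e-08). Cox5a (chr9:57369039-57380233) and Cox5b (chr1:36748332-36750233) encode the subunits on the matrix side. Cox5a went from 683 and 704 to 33.8 and 26.9 FPKM, the largest difference of the set at -4.48 (SE 0.43, adjusted p = 1.2e-07). Cox5b went from 483 and 394 to 42.2 and 26.1 FPKM, and its difference was -3.68 (SE 0.34, adjusted p = 9.4e-08). No MI library of these 3 genes came near a GV library.

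Cox17 (chr16:38347085-38352849) encodes the chaperone that carries copper to SCO1 and COX11 in the intermembrane space. It dropped from 699.8 and 708 FPKM to 85.6 and 57.1 at MI, a difference of -3.31 (SE 0.34, adjusted p = 3.1e-07). Cox7b, a small membrane-spanning subunit, dropped from 199.7 and 122 FPKM to 10.4 and 8.74, and its difference was -3.90 (SE 0.48, adjusted p = 2.4e-06). All 5 genes of the steep group were also called lower under both rescalings, and no other member was. After median-ratio scaling the calls over all genes were split into 30.5% lower and 15.2% higher, and at a common sum into 18.8% and 18.3%.

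Of the shallow group, Cox6a1 (chr5:115795663-115798964), the widely expressed isoform of a subunit at the dimer interface, had the smallest difference by MI on the deposited scale. It was at 491 and 529 FPKM at GV and at 345 and 229 at MI, and the difference of -0.86 (SE 0.43) missed the threshold (adjusted p = 0.088). Cox6c went from 793 and 768 to 331 and 224 FPKM, a difference of -1.52 (SE 0.39, adjusted p = 0.0025). Cox6b1 (chr7:31401993-31411170), an intermembrane-space subunit, Cox7a2 (chr9:79603048-79607660), the isoform of subunit 7a found in most tissues, and Cox7c (chr13:86184403-86186400) fell by 1.58 to 1.88 (log2). Under both rescalings none of the 5 passed the test, and 3 turned to values above 0. Cox6a1 turned to 0.40 after median-ratio scaling and 0.80 at a common sum (adjusted p = 0.53 and 0.16), and Cox6b1 and Cox6c to 0.06 and 0.14 at a common sum.

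**Figure D1:**
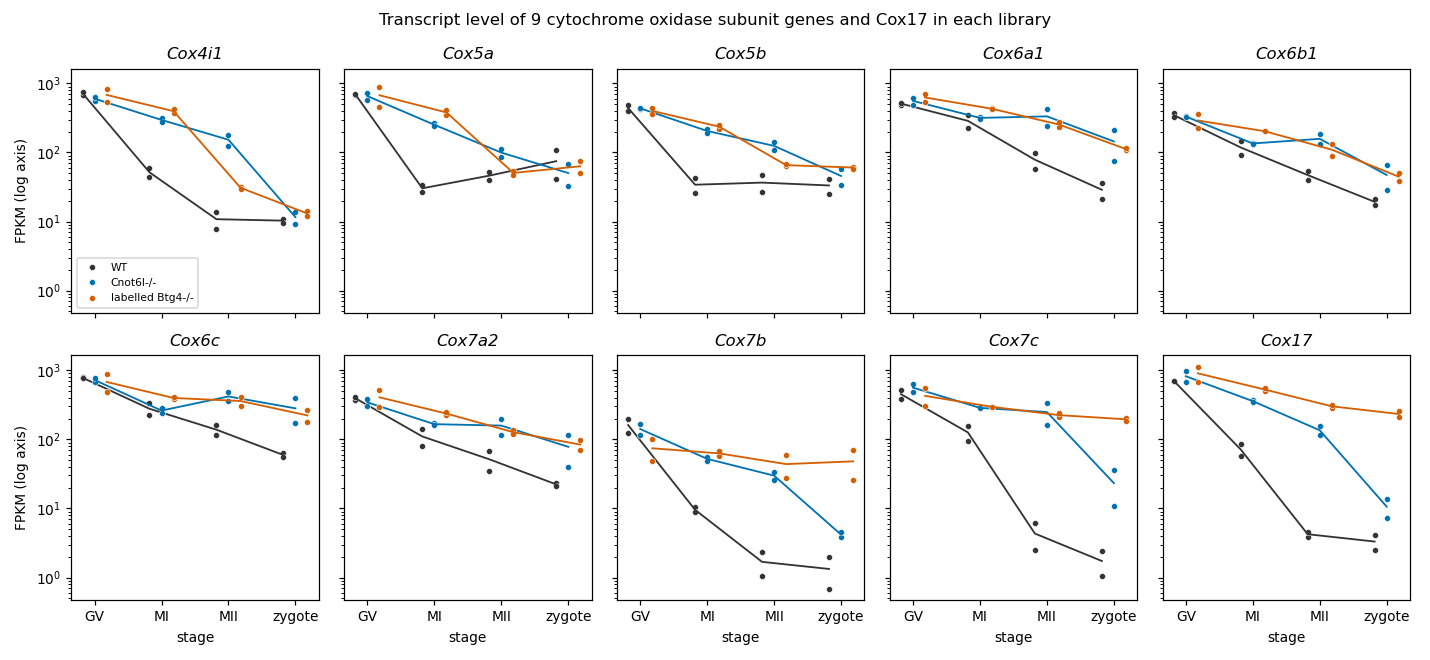
FPKM of each of the 10 genes (one panel each, log axis) by stage, with 1 point per library and lines through the means of 2 libraries for WT, Cnot6l-/- and the libraries labelled Btg4-/-. In WT, Cox5a is at 33.8 and 26.9 FPKM at MI while Cox6a1 is still at 345 and 229, and Cox17 is at 254 and 212 FPKM in zygotes labelled Btg4-/- against 2.53 and 4.10 in WT zygotes.

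From MI to MII in WT, 6 of 10 genes fell (32.6% of all genes were called lower), with a median of -1.58 against -0.44 for all genes. Cox7c showed the largest change, from 158 and 93.8 FPKM to 6.17 and 2.49, a difference of -4.62 (SE 0.50, limma adjusted p = 4.8e-06). Cox17 followed with a difference of -3.76 (SE 0.34, adjusted p = 1.1e-06), to 3.86 and 4.61 FPKM. Cox7c, a small membrane-spanning subunit of the shallow group at MI, was in the range of Cox17 by MII. Cox4i1, Cox7b, Cox6a1 and Cox6b1 also fell, and the first pair passed under both rescalings with Cox7c and Cox17. The median of all genes was then -0.22 after median-ratio scaling and -0.26 at a common sum.

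Cox5a and Cox5b had no further fall after MI. Cox5a was at 39.9 and 52.4 FPKM at MII (difference from MI 0.59, SE 0.43, adjusted p = 0.33) and Cox5b at 26.7 and 46.6 (0.09, SE 0.34, adjusted p = 0.9). Relative to the other transcripts, Cox5a was higher at MII than at MI after median-ratio scaling (1.25, adjusted p = 0.016) and at a common sum (1.27, adjusted p = 0.0027), where 5.64% and 4.12% of all genes were called higher. By limma Cox5b was called higher at a common sum (0.755, adjusted p = 0.046) and not after median-ratio scaling (0.747, adjusted p = 0.09).

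Between MII and zygote in WT no member passed the test (0 of 10, 4 at an unadjusted p under 0.05; 4.25% of all genes passed in either direction). Those 4 were Cox6a1, Cox6b1, Cox6c and Cox7a2, with differences of -1.41 to -1.09 and adjusted p of 0.076 to 0.21. In WT zygotes Cox5a, at 108 and 41.4 FPKM, and Cox6c, at 63.7 and 54.95, had the highest means and overlapped. Cox5a was called higher than at MII once library-wide differences were removed (1.07, adjusted p = 0.049 after median-ratio scaling, and 1.23, adjusted p = 0.0046 at a common sum), with 15.0% and 18.1% of all genes called higher. Cox7b (1.97 and 0.69 FPKM), Cox7c (1.04 and 2.43) and Cox17 (2.53 and 4.10) were lowest. These 3 transcripts stood at 0.385% to 0.827% of their GV means, and the other 7 at 1.43% to 10.8%. The ratio of the highest to the lowest member mean was 4.85 at GV, 30.1 at MI, 81.9 at MII and 56.3 in zygotes.

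In Cnot6l-/- oocytes the fall to MI was called for 7 of 10 genes (15.0% of all genes were called lower), with a median of -1.13 against -0.14. The adjusted p values lay between 0.015 and 0.046, and the count was 0 without any one of the 4 libraries compared, and 0 with a pseudocount of 0.1. Cox4i1 was at 318 and 274 FPKM, Cox5a at 265 and 239, and Cox17 at 371 and 344. The 10 genes kept 36.1% to 56.7% of their GV means, so the steep and shallow groups of WT were not separated. From MI to MII, Cox4i1, Cox5a and Cox17 fell (3 of 10; 54.3% of all genes were called lower), with differences of -0.97 to -1.41. The count was 1 without the first MII library or without the MI library in the column numbered 2. After rescaling these 3 were not called, and Cox6b1 and Cox6c were called higher instead (after median-ratio scaling 0.98 and 1.45, adjusted p = 0.023 and 0.0028, with 6.41% of all genes higher and 26.8% lower).

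The largest median log2 change of the set in Cnot6l-/- came between MII and zygote, where 7 of 10 genes fell (28.7% of all genes were called lower; median -1.64 against -0.46). Cox4i1 went from 124 and 182 FPKM to 9.29 and 13.8, a difference of -3.61 (SE 0.31, limma adjusted p = 8.2e-07). Cox17 went from 114 and 156 to 7.29 and 13.9 FPKM, a difference of -3.60 (SE 0.34, adjusted p = 1.9e-06). Cox7c went from 160.4 and 336 to 10.7 and 35.8 FPKM, a difference of -3.49 (SE 0.50, adjusted p = 6.1e-05). Cox7b, Cox5b, Cox6a1 and Cox6b1 fell by 1.34 to 2.57 (log2). Cox4i1, Cox6b1, Cox7b, Cox7c and Cox17 were called lower under both rescalings too. After median-ratio scaling their differences ran from -2.97 to -1.14, against a median of -0.13 for all genes (-0.075 at a common sum).

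In libraries labelled Btg4-/- no member passed the test between GV and MI (0 of 10 by limma, 3 at an unadjusted p under 0.05; 1.26% of all genes were called lower), and all 10 differences were negative, from -0.75 to -0.16. The 2 GV libraries with this label lay apart, with the first lower for every one of the 10 genes. Cox5a was at 454 and 895 FPKM and Cox17 at 673 and 1133. The absence of calls and the percentages of the GV mean in this genotype rest on that spread. From MI to MII, 5 of 10 fell (69.3% of all genes were called lower), with a median of -0.85 against -1.0 for all genes, and the members parted widely. Cox4i1 went from 367 and 426 FPKM to 31.6 and 30.04, a difference of -3.64 (SE 0.31, adjusted p = 3.2e-08). Cox5a went from 349.8 and 411 to 53.9 and 47.3 FPKM (-2.88, SE 0.43, adjusted p = 1.6e-05). Cox4i1 and Cox5a were the members called lower under both rescalings. Cox5b, Cox6b1 and Cox17 were called as deposited, the last at -0.80 (adjusted p = 0.046), and Cox6b1 and Cox17 turned to values above 0 after rescaling. Cox6c was called higher there (1.0 by median-ratio scaling, adjusted p = 0.023), against 5.31% of all genes higher and 30.6% lower. The count was 3 without either MI library or without the second MII library.

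Between MII and zygote in libraries labelled Btg4-/- no member passed (0 of 10 by limma, 3 at an unadjusted p under 0.05; 1.32% of all genes in either direction). Cox17 was at 285 and 317 FPKM in MII eggs and at 254 and 212 in zygotes. Cox7c was at 211 and 238 and then at 203 and 187 FPKM. Cox7b was at 59.9 and 27.7 and then at 70.6 and 25.5 FPKM, with its second library the lower at both stages. These 3 genes thus kept 25.8%, 45.7% and 64.7% of their GV means in zygotes. The share of Cox7b rests on a low GV base, 48.5 and 100.04 FPKM against 199.7 and 122 in WT, a difference that was not called. Cox6c, at 268 and 176 FPKM in zygotes, kept 32.7%, more than Cox17, and the other 6 kept 1.92% (Cox4i1) to 20.7% (Cox7a2).

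**Figure D2:**
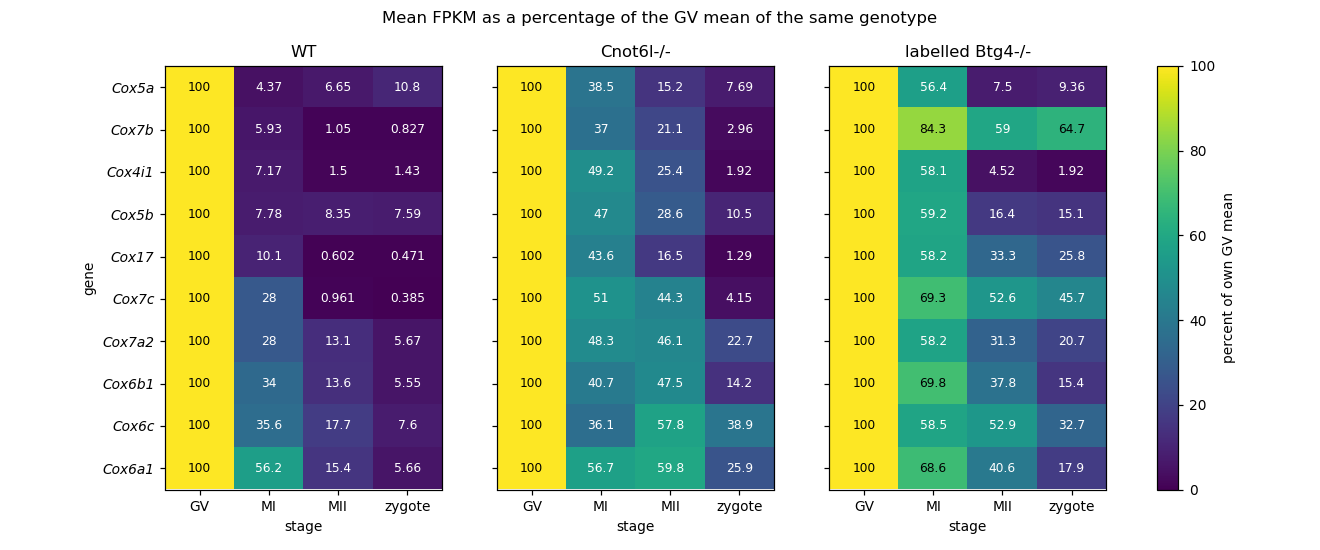
Mean FPKM of 2 libraries as a percentage of the GV mean of the same genotype, for each gene (rows, ordered by the WT value at MI) and stage (columns), in WT, Cnot6l-/- and libraries labelled Btg4-/-. In WT the upper 5 genes are at 10.1% or less by MI, and in Cnot6l-/- all 10 are still at 15.2% or more at MII. In zygotes labelled Btg4-/- Cox7b and Cox7c are still at 64.7% and 45.7%, where the GV mean of Cox7b is 74.3 FPKM against 161 in WT.

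Set against WT at MI, Cnot6l-/- oocytes had higher levels of 6 of 10 genes (60.3% of all genes were called higher), with a median of 1.78 against 0.87. Cox5a differed by 3.02 (SE 0.43, limma adjusted p = 1.1e-05), Cox5b by 2.59 (SE 0.34, adjusted p = 5.6e-06) and Cox4i1 by 2.51 (SE 0.31, adjusted p = 2.7e-06). Cox7b and Cox17 each differed by 2.34, and Cox7c by 1.22 (adjusted p = 0.044). For Cox6a1, Cox6b1 and Cox6c the differences were 0.17, 0.23 and -0.06 (adjusted p = 0.63 to 0.91), with intervals between -0.88 and 1.08. Libraries labelled Btg4-/- were higher than WT at MI for 7 of 10 genes (68.7% of all genes), with differences of 3.61 for Cox5a, 2.92 for Cox4i1, 2.89 for Cox17, 2.79 for Cox5b and 2.59 for Cox7b. Cox7c and Cox7a2 differed by 1.27 and 1.15 (both adjusted p = 0.033). Both counts of members lie near the shares of all genes and are not particular to the set.

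Both comparisons share the WT MI libraries, and the steep group was set apart by the values of these same libraries. A lead of that group here, or in the change from GV to MI below, is therefore not independent of how it was chosen. In each, the 5 genes that were called under both rescalings were Cox4i1, Cox5a, Cox5b, Cox7b and Cox17, the steep group of WT. After median-ratio scaling 35.8% of all genes were called higher and 11.0% lower in Cnot6l-/-, and 32.5% and 9.82% in libraries labelled Btg4-/-. Cox6c turned the other way in Cnot6l-/-, with a rescaled difference of -1.0 by either method (adjusted p = 0.018 after median-ratio scaling and 0.0036 at a common sum). At a common sum Cox6b1 was called lower in Cnot6l-/- (-0.71, adjusted p = 0.031), and Cox6c in libraries labelled Btg4-/- (-0.72, adjusted p = 0.032). The change from GV to MI itself differed from that of WT for the same 5 genes in Cnot6l-/- (44.4% of all genes) and in libraries labelled Btg4-/- (45.4% of all genes). These counts, too, lie near the shares of all genes. In the first the 5 interaction terms lay between 2.14 and 3.11, and in the second between 2.58 and 3.74. After median-ratio scaling 4 of the 5 were called in each, Cox17 being the exception, where the medians of all genes were 0.20 and 0.15. At a common sum Cox17 was again not called in either. In Cnot6l-/- Cox7b was not called there as well (limma adjusted p = 0.066), which left Cox4i1, Cox5a and Cox5b.

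At MII all 10 genes were higher in Cnot6l-/- than in WT (44.3% of all genes were called higher), with a median of 1.92 against 0.56. Cox7c was at 160.4 and 336 FPKM against 6.17 and 2.49 in WT, a difference of 5.54 (SE 0.50, limma adjusted p = 2.7e-07). Cox17 differed by 4.69 (SE 0.34, adjusted p = 4.1e-08), Cox4i1 by 3.72 (SE 0.31, adjusted p = 1.3e-07) and Cox7b by 3.55 (SE 0.48, adjusted p = 1.6e-05). The other 6 differed by 1.09 to 2.06, the smallest being Cox5a (adjusted p = 0.047). Under both rescalings 6 remained: those 4, Cox5b and Cox6b1, with 34.3% of all genes called higher and 8.69% lower after median-ratio scaling. The change from GV to MII differed from WT for 9 of 10 genes (24.1% of all genes), all but Cox5a. That count was 4 without the first WT GV or the first WT MII library and 5 without the first Cnot6l-/- GV or the second Cnot6l-/- MII library, and 4 under either rescaling (Cox4i1, Cox7b, Cox7c and Cox17).

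Libraries labelled Btg4-/- were higher than WT at MII for 8 of 10 genes (28.3% of all genes), with a median of 1.42 against 0.38. Cox17 was at 285 and 317 FPKM against 3.86 and 4.61, a difference of 5.85 (SE 0.34, limma adjusted p = 1.3e-08). Cox7c differed by 5.49 (SE 0.50, adjusted p = 7.7e-07) and Cox7b by 4.0 (SE 0.48, adjusted p = 1.2e-05). The other 5 that were called, Cox4i1 among them, differed by 1.19 to 1.72. Cox5a, at 53.9 and 47.3 FPKM against 39.9 and 52.4 in WT, did not pass (0.14, interval -0.77 to 1.04, adjusted p = 0.88). Without the first WT MII library the count was 4, and without the first MII library labelled Btg4-/- it was 5. Under both rescalings Cox7b, Cox7c and Cox17 were the members called, with differences of 3.57, 4.92 and 5.26 after median-ratio scaling, which called 21.8% of all genes higher and 6.55% lower. The change from GV to MII differed from WT for 4 of 10 genes (13.3% of all genes): Cox7c (5.61), Cox17 (5.54), Cox7b (5.16) and Cox4i1 (1.58). Under both rescalings the first 3 of these were called and Cox4i1 was not (0.95, adjusted p = 0.2 after median-ratio scaling). The term of Cox7b includes its GV difference of -1.15 from WT.

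In zygotes the 2 knockouts parted. Those labelled Btg4-/- were higher than WT for 7 of 10 genes (21.5% of all genes), led by Cox7c (6.21, SE 0.50, limma adjusted p = 4.9e-07), Cox17 (5.78, SE 0.34, adjusted p = 3.2e-08) and Cox7b (4.28, SE 0.48, adjusted p = 1.3e-05). Cox6a1, Cox6b1, Cox6c and Cox7a2 differed by 1.16 to 1.97, and these 4 did not pass under both rescalings, while Cox7b, Cox7c and Cox17 did (11.7% of all genes higher and 3.04% lower after median-ratio scaling). The differences of Cox4i1, Cox5a and Cox5b were 0.31, -0.11 and 0.88 (adjusted p = 0.08 to 0.9), and at a common sum Cox5a was called lower (-1.31, adjusted p = 0.0056).

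Cnot6l-/- zygotes were higher than WT for 5 of 10 genes (8.00% of all genes): Cox7c (2.97, adjusted p = 0.0013), Cox6a1 (2.14), Cox6c (2.11), Cox7a2 (1.58) and Cox17 (1.39). The 2 Cnot6l-/- zygote libraries lay apart, with the first lower for every one of the 10 genes: Cox6c was at 171 and 391 FPKM and Cox6a1 at 74.2 and 215. Without the second of them the count was 1, and without the first WT zygote library it was 3. Cox6a1, Cox6c and Cox7c were called under both rescalings. At the same time Cox5a was called lower than WT after rescaling (-1.15 after median-ratio scaling, adjusted p = 0.041, with 8.00% of all genes called higher and 7.91% lower), while on the deposited scale it differed by -0.49 (adjusted p = 0.65).

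**Figure D3:**
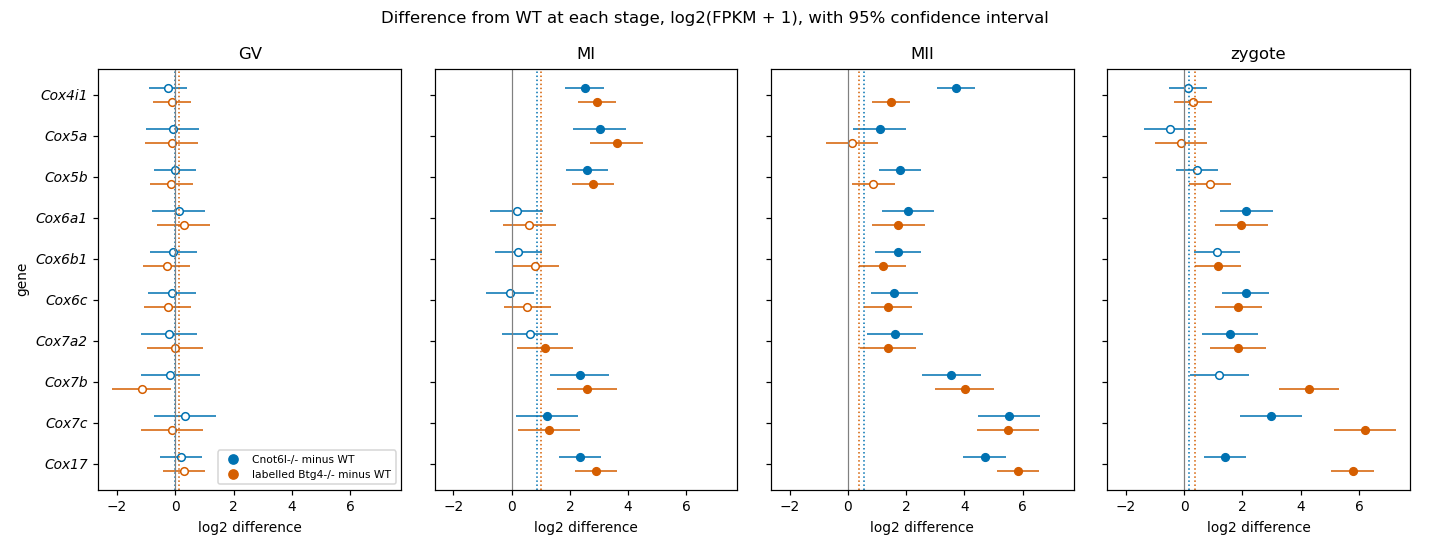
Difference from WT in log2(FPKM + 1) for each gene (rows) at each stage (panels), with 95% confidence intervals from limma; filled points passed an adjusted p under 0.05, and dotted lines mark the median of all genes tested. Points lie around 0 at GV, and the 5 genes of the steep group, which was set apart by the same WT MI libraries, lead at MI. In zygotes Cox7b, Cox7c and Cox17 labelled Btg4-/- stand at 4.28 to 6.21 while those of Cnot6l-/- lie at 1.21 to 2.97.

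The knockouts were also compared with each other. At GV and at MI no member passed (0 of 10 each by limma, 0 at an unadjusted p under 0.05; 18.3% and 10.1% of all genes in either direction). At MI all 10 were lower in both Cnot6l-/- libraries than in both labelled Btg4-/- (54.2% of all genes), with differences of -0.60 to -0.05, and 7 were called lower when the fit held these 4 libraries alone (34.2% of 10193 genes). At MII, Cox4i1 was higher in Cnot6l-/- (124 and 182 FPKM against 31.6 and 30.04; difference 2.25, SE 0.31, adjusted p = 0.00013; 11.0% of all genes were called higher). Cox17 was lower there (114 and 156 against 285 and 317; -1.16, SE 0.34, adjusted p = 0.033; 1.77% of all genes were called lower). This count of 2 was 1 without the first Cnot6l-/- library or either library labelled Btg4-/-, and both genes were called under both rescalings. In zygotes, Cox17 (-4.39, SE 0.34, adjusted p = 3.4e-07), Cox7c (-3.24, SE 0.50, adjusted p = 0.00036) and Cox7b (-3.08, SE 0.48, adjusted p = 0.00038) were lower in Cnot6l-/- (3 of 10; 12.8% of all genes were called lower). The same 3 genes were called under both rescalings. The other 7 differed by -0.45 to 0.25.

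Cox7b, Cox7c and Cox17, the genes with the largest differences from WT in zygotes labelled Btg4-/-, each hold ATTTA in the windows above. Cox7a2 also holds it, and in that comparison it was called higher on the deposited scale but not under the rescalings. Cox6c, which kept a larger share of its GV mean there than Cox17, holds none. Across the 12 group means the pairwise correlations of log2(FPKM + 1) among these 3 genes were 0.948 to 0.981, and Cox5a with Cox7c had the lowest of the set at 0.6. These are descriptions over groups that share libraries and library-wide scaling.

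Other genes of the respiratory chain moved with the set in WT. Of the other structural genes of complex IV, most of them tissue-specific isoforms, 7 of 8 tested fell between GV and MI (median -1.26). Among them Cox7a2l, a supercomplex assembly factor, fell by 3.85 (log2). The factors that assemble complex IV and deliver its copper fell in 20 of 22 (median -2.31). Surf1, an assembly factor, fell by 3.92 and Cox19, a partner of Cox17 in copper handling, by 3.57, whereas Sco1, which receives copper from Cox17, fell by 0.46 and Cox10, a haem A synthesis enzyme, gave -0.34 (adjusted p = 0.24). On the cytochrome c list (Cycs, Cyct and Hccs, the last a haem lyase gene) 2 of 3 tested fell. Complexes II and III fell in 13 of 13 (median -2.42), ATP synthase in 14 of 15 (-3.31) and complex I in 33 of 35 (-3.14). With 65.1% of all genes called lower, these counts describe the lists and are not particular to them.

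In zygotes labelled Btg4-/- against WT, 1 of 8 other structural genes, 8 of 22 assembly genes, 1 of 3 genes on the cytochrome c list, 7 of 13 genes of complexes II and III, 10 of 15 ATP synthase genes and 27 of 35 complex I genes were called higher, where 21.5% of all genes were. The medians ran from 0.49 (assembly) to 2.00 (complex I), against 1.86 for the 10 genes and 0.38 for all genes. Genes with differences near those of Cox7b included Sdhd (4.25), a membrane anchor of complex II, and Ndufb3 (4.19) and Ndufc2 (4.09), accessory subunits of complex I. No gene of these lists reached the 5.78 of Cox17.

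**Figure D4:**
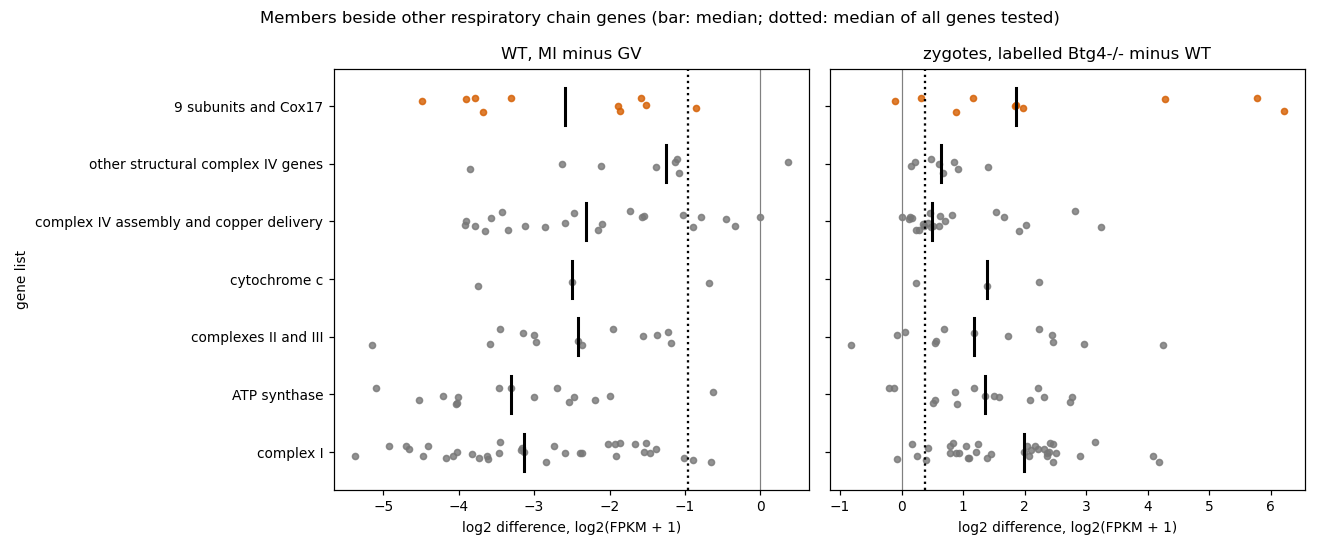
Log2 difference of each gene (points) in the set and in 6 lists of related genes, for WT MI minus GV (left) and for zygotes labelled Btg4-/- minus WT (right), with bars at list medians and dotted lines at the median of all genes tested. The set has medians of -2.60 and 1.86, and 2 of its genes, Cox7c and Cox17, lie beyond every gene of the other lists on the right.

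The transcript whose course over the 12 groups was most like the mean of the 10 genes was Rwdd1 (Pearson r = 0.997 of log2(FPKM + 1), 5327 genes compared). Rpl35a, a large-subunit ribosomal protein gene (0.993), Atp5h of ATP synthase (0.992), Ndufb5 of complex I (0.992) and Mrpl20 of the mitochondrial ribosome (0.991) came next. Atp5h went from 745 FPKM in WT GV oocytes to 66.8 at MI and 11.6 at MII. These are likenesses over 12 group means, which share the library-wide fall in FPKM.

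Single values of 5 members are uncertain because the mm9 genome holds close copies of their transcripts (at least 90% identity over at least 80% of the length) that reads could be shared with: 1 for Cox5a, 2 for Cox5b (up to 99.2% identity), 1 for Cox6a1, 2 for Cox6c (up to 96.9%) and 4 for Cox7c (up to 95%). None was found for Cox4i1, Cox6b1, Cox7a2, Cox7b or Cox17.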

How the data were processed

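RNA-seq was done on 24 libraries of mouse oocytes and zygotes by a Smart-seq2-type protocol, per the labels' protocols. Per the submitters' processing notes, CASAVA 1.8, TopHat2 2.0.11, Bowtie2 2.1.0 and Cufflinks 2.2.1 were used with mm9. The authors deposited FPKM with 2 decimals per gene and library, with no read counts, so depth is unknown, and whole reads could not be recovered from the low values. The MI columns are numbered 2 and 3, and were assigned to their group by name. Genes whose mean reached 1 FPKM in any of 12 groups were fitted on log2(FPKM + 1) with limma 3.58.1 (R 4.3.3; group means, trended prior, 12 residual degrees of freedom), with Benjamini-Hochberg adjustment over 10884 genes and a threshold of 0.05. This was tested on simulated data. The members, gene lists and tests were chosen with earlier results of these data known. Members and list genes are named throughout; otherwise the 5 genes most like the members' mean were named, among genes of at least 10 FPKM in 1 group. Older symbols were matched through RefSeq. BLAST+ 2.17.0 was used to find close copies. Alternatives were a pseudocount of 0.1, no filter, the 2 rescalings (each filtered again), fits of the compared libraries alone (filtered again), a replicate block and leaving out each library.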

Additional observations from a re-analysis of the deposited data

Results flagged for a closer look

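The change from GV oocyte to MI or MII differed between a knockout and WT, by limma's interaction term on log2(FPKM + 1), for 23 pairs of gene and contrast. To MI, 44.4% of all genes were called higher in Cnot6l-/- and 45.4% in libraries labelled Btg4-/-. To MII the shares were 24.1% and 13.3%. The genes called at MI are the steep group, which was set apart by the same WT MI libraries. Of the 9 called in Cnot6l-/- at MII, 4 were called under both rescalings. From GV to MI the difference of Cnot6l-/- from WT was 2.77 for Cox4i1, 3.11 for Cox5a, 2.59 for Cox5b, 2.51 for Cox7b and 2.14 for Cox17. From GV to MI in libraries labelled Btg4-/- it was 3.03 for Cox4i1, 3.73 for Cox5a, 2.93 for Cox5b, 3.74 for Cox7b and 2.58 for Cox17. From GV to MII in Cnot6l-/- it was 3.98 for Cox4i1, 1.78 for Cox5b, 1.94 for Cox6a1, 1.78 for Cox6b1, 1.71 for Cox6c, 1.84 for Cox7a2, 3.73 for Cox7b, 5.23 for Cox7c and 4.49 for Cox17. From GV to MII in libraries labelled Btg4-/- it was 1.58 for Cox4i1, 5.16 for Cox7b, 5.61 for Cox7c and 5.54 for Cox17. All 4 contrasts share the WT GV libraries, and groups of 2 libraries were too small to look for single outlying libraries. Both terms of Cox7b in libraries labelled Btg4-/- include its GV difference of -1.15 from WT.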

How the results depend on the processing

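The scale matters most, since summed FPKM differs between groups. With median-ratio scaling the members called were 5 for WT MI against GV, 1 for WT zygote against MII, 4 and 2 for Cnot6l-/- MI against GV and MII against MI (the 2 higher, the 3 of the deposited scale lower), 3 for MII against MI labelled Btg4-/- (1 higher), 6 and 4 (1 of them lower) for Cnot6l-/- against WT at MII and in zygotes, 3 and 3 for Btg4-/- against WT there, and 4 for the Cnot6l-/- interaction at MII. At a common sum the same comparisons gave 5, 1, 1, 2 (again higher), 3, 8 and 4 (Cnot6l-/- MII and zygotes), 3 and 4 (Btg4-/- MII and zygotes, 1 of the 4 lower) and 4, with 1 for zygote against MII labelled Btg4-/- and 3 for the Cnot6l-/- interaction at MI. Among members called on the deposited scale, signs turned at a common sum for Cox6b1 and Cox6c in WT MI against GV (0.062 and 0.14) and Cox6b1 in zygotes labelled Btg4-/- against WT (-0.002). They turned under both for Cox6b1 (0.25 and 0.27) and Cox17 (0.36 and 0.38) in MII against MI labelled Btg4-/-, and Cox7a2 in Btg4-/- against WT at MI (-0.068 and -0.11). A pseudocount of 0.1 gave 2 for WT zygote against MII and 0 for Cnot6l-/- MI against GV. No filter gave 3 for MII against MI labelled Btg4-/- and 1 for Cnot6l-/- against Btg4-/- at MII. Fits of the compared libraries alone gave 5 for Cnot6l-/- MII against MI, 1 and 3 for Cnot6l-/- and Btg4-/- against WT in zygotes, and 7 and 1 for Cnot6l-/- against Btg4-/- at MI and MII. The causes were not tested.

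Leaving out 1 library at a time, where the lone library left is taken to vary like the other groups, gave 0 to 0 for Cnot6l-/- MI against GV, 1 to 3 for its MII against MI, 3 to 4 for MII against MI labelled Btg4-/-, 1 to 6 for Cnot6l-/- against WT zygotes, 4 to 9 for Btg4-/- against WT at MII, 1 to 2 for Cnot6l-/- against Btg4-/- at MII and 4 to 9 for the Cnot6l-/- interaction at MII. The libraries share replicate numbers but nothing says that a number marks an animal or day. Deviations of same-numbered libraries correlated at -0.31 to 0.71, with 28 of 39 pairs over 0.1. With a replicate block WT zygote against MII gave 1 member, Btg4-/- against WT at MI went from 7 to 9 and Cnot6l-/- against WT at MII from 10 to 9; no block could be fitted between MI, numbered 2 and 3, and other stages. With 2 libraries a group and unknown depth, small differences were not detectable.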
